A study of Mus musculus with 8 samples.

Results

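Csf1, Il34, Ccl2, Ccl7, Ccl12, Cxcl12, Cxcl14 and Cx3cl1 are secreted or shed proteins that feed macrophages or draw monocytes, macrophages and other leukocytes. They were chosen by gene name from the annotated loci of RNA-seq libraries of the embryonic mouse stomach at E13.5. All 8 were found among 23165 loci with a gene name, and all 8 passed the filter on low counts that left 14574 loci to test. Ccl7 and Ccl12 passed it only through their YAP5SA libraries, as wild type libraries held 2 to 5 and 8 to 18 fragments of them. The 4 YAP5SA libraries carried the genotype Nkx3.2Cre;R26-YAP5SA, in which a Cre driven from Nkx3-2, a gene of the embryonic gut mesenchyme, switches on YAP5SA from the Rosa26 locus. YAP5SA is a YAP protein whose Hippo-phosphorylated serines are replaced by alanine, so that it stays active. The 4 other libraries were labelled wild type, and with no group that carried Cre alone, effects of the Cre allele cannot be told apart from those of YAP5SA. RNA came from stomach tissue. The labels name no strain or sex, nor whether a library is 1 embryo or a pool.

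Macrophages of embryonic tissues depend on the receptor tyrosine kinase CSF1R, whose ligands in the mouse are CSF1 and IL34. CSF1 is made by many mesenchymal cells, and in the mouse gut wall also by enteric neurons, while IL34 is best known from skin and brain. Chemokines are small proteins that guide cells through G protein-coupled receptors: CCL2, CCL7 and CCL12 draw monocytes through CCR2, CXCL12 acts on CXCR4 and is bound by the decoy receptor ACKR3, and CX3CL1 is a membrane-tethered ligand of CX3CR1. In bulk tissue, fewer cells of a type and less RNA per cell cannot be told apart, so a level below is a property of the whole stomach sample.

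Promoter sequences from RefSeq (GRCm38.p6, the 250 bases before the transcription start, read on the gene's strand) were available for 5 of the 8 genes. Those of Csf1, Ccl12 and Cxcl12 are shown because these genes rose by very different amounts. Capitals mark matches to motifs searched on both strands: TEAD (GGAATG, the motif of the TEAD factors that YAP binds), AP-1 (TGANTCA), the NF-kB consensus, Sp1 (GGGCGG) and the TATA box (TATAAA). The lines hold chr3:107760470-107760719 on the minus strand for Csf1, chr11:82101595-82101844 on the plus strand for Ccl12, and chr6:117168285-117168534 on the plus strand for Cxcl12.
Csf1: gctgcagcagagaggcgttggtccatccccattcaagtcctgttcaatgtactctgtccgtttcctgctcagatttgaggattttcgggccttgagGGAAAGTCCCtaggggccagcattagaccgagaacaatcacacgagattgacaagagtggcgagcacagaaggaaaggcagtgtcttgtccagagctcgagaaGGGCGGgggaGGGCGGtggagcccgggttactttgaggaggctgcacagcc
Ccl12: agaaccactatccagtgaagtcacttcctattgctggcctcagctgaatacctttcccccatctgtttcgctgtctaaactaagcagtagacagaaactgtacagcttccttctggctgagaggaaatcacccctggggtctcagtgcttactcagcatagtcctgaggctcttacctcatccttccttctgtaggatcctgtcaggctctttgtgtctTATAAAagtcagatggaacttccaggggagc
Cxcl12: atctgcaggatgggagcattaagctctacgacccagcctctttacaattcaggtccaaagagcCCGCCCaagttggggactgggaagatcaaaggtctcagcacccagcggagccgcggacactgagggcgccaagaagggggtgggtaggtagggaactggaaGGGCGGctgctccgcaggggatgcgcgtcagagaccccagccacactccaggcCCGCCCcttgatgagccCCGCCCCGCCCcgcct

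The Csf1 window held 1 NF-kB match on the opposite strand, starting 154 bases before the start, and Sp1 matches at 51 and 41 bases. In the Ccl12 window the only match was a TATA box 31 bases before the start. Cxcl12 had 5 Sp1 matches, at 187, 86, 33, 16 and 11 bases, of which those at 16 and 11 bases overlap. No TEAD or AP-1 match lay in these 3 windows or in those of Cx3cl1 and Cxcl14. Of 32851 RefSeq promoter windows of the same length, 12.6% held the TEAD motif, 6.75% the AP-1 motif, 3.9% the NF-kB consensus, 32.7% the Sp1 motif and 12.4% the TATA box. A match is a run of letters and not a measured site.

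Libraries held 7293556 to 8513116 fragments in YAP5SA and 6328344 to 6919353 fragments in wild type. Log2 levels correlated at 0.973 to 0.986 within YAP5SA, 0.970 to 0.986 within wild type and 0.936 to 0.955 between genotypes, across loci. Yap1 itself was at 204 to 233 CPM, the fragment count scaled to library size, in YAP5SA and 225 to 239.6 CPM in wild type, a log2 fold change of −0.05 (SE 0.05, edgeR adjusted p = 0.55), and whether transgene reads were counted at this locus was not given. Ankrd1, a YAP target gene, was at 69.2, 56.5, 34.1 and 21.9 CPM in YAP5SA libraries 1 to 4, against 0.318, 0, 0.300 and 0.947 CPM in wild type libraries 1 to 4. Barx1, a transcription factor of the stomach mesenchyme, was at 158 ± 14.2 CPM in YAP5SA and 171 ± 7.64 CPM in wild type. Wild type library 4 stood apart from the other wild type libraries in myeloid genes. It had 8 fragments of the neutrophil gene S100a9, against 73 to 91 in the others. In YAP5SA libraries 1 to 4, S100a9 had 48, 4, 20 and 52 fragments, so YAP5SA library 2 was lower still. Without wild type library 4 the test gave the same counts of the 8 genes, 5 higher and 0 lower.

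With YAP5SA, 5 of the 8 genes rose and none fell. The risers were the growth factor Csf1, the clustered chemokines Ccl2, Ccl7 and Ccl12, and, by a small amount, Cxcl12. Il34, Cxcl14 and Cx3cl1 did not pass the test. Across all 14574 loci, 9.06% rose, 9.85% fell and 18.9% were called in either direction at an edgeR adjusted p under 0.05. The count of members that fell at an unadjusted p under 0.05 was 0 by edgeR, by DESeq2 and by limma-voom. The members' median log2 fold change was 0.99, against −0.01 over all loci tested. The 8 genes were chosen with earlier results of these data known, so setting them beside all loci is no independent test. Levels of YAP5SA and wild type did not overlap for 5 of the 8 genes, the same 5 that rose, as they did not for 23.3% of all loci tested.

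**Figure D1:**
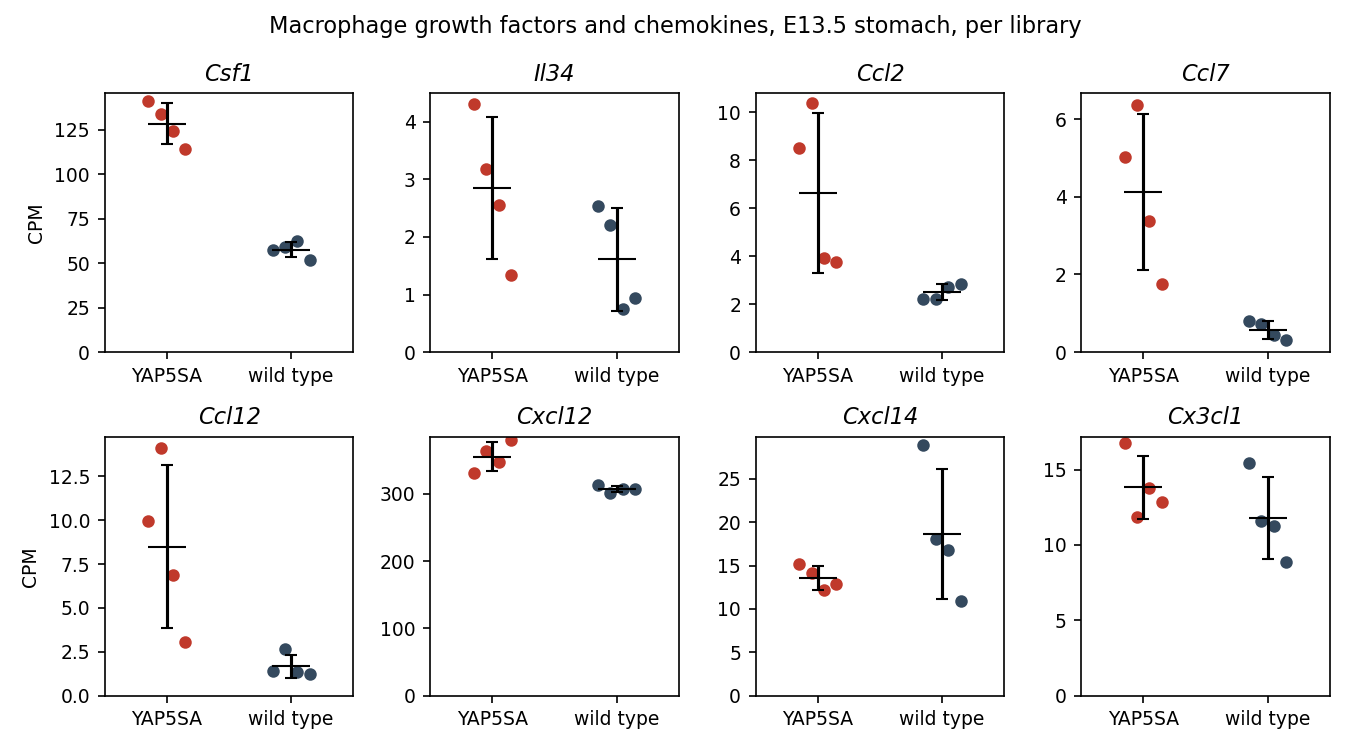
Levels of the 8 genes in CPM, 1 panel a gene with its own axis, with each point 1 library, YAP5SA left and wild type right, and the bar showing mean and SD of 4 libraries. Points of the genotypes are fully separated for Csf1, Ccl2, Ccl7, Ccl12 and Cxcl12, and mixed for Il34, Cxcl14 and Cx3cl1.

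Csf1, on chromosome 3 at 107741048 to 107760469 (mm10, minus strand, 9 exons), encodes colony-stimulating factor 1, the main survival and growth factor of macrophages. Its level was 141, 134, 125 and 114 CPM in YAP5SA libraries 1 to 4, against 57.5, 58.8, 62.2 and 51.8 CPM in wild type libraries 1 to 4. The lowest YAP5SA library stood well above the highest wild type library. Means were 128 ± 11.6 CPM in YAP5SA and 57.6 ± 4.34 CPM in wild type (SD, n = 4 each). Csf1 was thus 2.23-fold higher, a log2 fold change of 1.16 (SE 0.08, edgeR adjusted p = 1.9e-05), and ranked 19 by p among all loci tested. A log2 fold change at least as high was found for 2.39% of loci.

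Il34, on chromosome 8 at 110741829 to 110805903 (minus strand), encodes the other CSF1R ligand and rested on few fragments. The libraries held 36, 23, 19 and 10 fragments in YAP5SA, against 16, 15, 5 and 6 fragments in wild type. Scaled to library size these were 4.31, 3.18, 2.56 and 1.34 CPM in YAP5SA, against 2.54, 2.21, 0.75 and 0.947 CPM in wild type. The ranges overlapped, though YAP5SA was higher in all 4 same-numbered pairs. The log2 fold change was 0.82 (SE 0.46, 95% interval −0.19 to 1.84, edgeR adjusted p = 0.26), an interval that holds both no change and a change as large as that of Csf1. The annotation places the antisense genes Gm15894 and Gm15895 over Il34, and whether counting used strand was not stated.

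The 3 CCR2 ligands lie together on chromosome 11 on the plus strand, each with 3 exons: Ccl2 at 82035577 to 82037452, Ccl7 at 82045712 to 82047523 and Ccl12 at 82101845 to 82103399. All 3 rose, with a wide spread between YAP5SA libraries. Their fitted folds were above that of Csf1, a difference between genes that was not tested. Within YAP5SA, libraries 1 and 2 were higher than libraries 3 and 4 for all 3. This was also so for Csf1, Il34, Cxcl14 and Ankrd1, but not for Cxcl12 or Cx3cl1.

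Ccl2 encodes monocyte chemoattractant protein 1. It was at 8.50, 10.4, 3.91 and 3.76 CPM in YAP5SA libraries 1 to 4, against 2.22, 2.21, 2.70 and 2.84 CPM in wild type libraries 1 to 4. The ranges were separate, but YAP5SA libraries 3 and 4 were near the wild type level. The log2 fold change was 1.41 (SE 0.37, edgeR adjusted p = 0.023), a 2.65-fold difference over 203 fragments in YAP5SA and 65 in wild type. The call was lost with limma-voom (adjusted p = 0.054) and without YAP5SA library 1 (0.052), YAP5SA library 2 (0.060), wild type library 1 (0.056) or wild type library 2 (0.066). An annotated gene on the other strand, Gm17268 (82028224 to 82038562), overlaps Ccl2, and its reads could not be told apart without strand.

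Ccl7 encodes monocyte chemoattractant protein 3, which also binds CCR1 and CCR3. Its levels were 5.03, 6.36, 3.37 and 1.74 CPM in YAP5SA libraries 1 to 4, against 0.794, 0.735, 0.450 and 0.316 CPM in wild type libraries 1 to 4. Every YAP5SA library was above every wild type library, where the gene rested on 5, 5, 3 and 2 fragments. The log2 fold change was 2.81 (SE 0.48, edgeR adjusted p = 0.0028), 7.00-fold over 126 fragments in YAP5SA and 15 in wild type. On deposited FPKM (fragments scaled to transcript length and library depth) with a pseudocount of 1 the log2 difference was 1.92. Only 0.35% of loci tested had a log2 fold change at least as high. As Ccl7 entered the tested loci through its YAP5SA level, this share is no independent support.

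Ccl12, an additional CCR2 ligand of the mouse, was at 9.94, 14.1, 6.88 and 3.09 CPM in YAP5SA libraries 1 to 4, against 1.43, 2.65, 1.35 and 1.26 CPM in wild type libraries 1 to 4. The lowest YAP5SA library, the fourth, was just above the highest wild type library, the second. Means were 8.50 ± 4.67 CPM in YAP5SA and 1.67 ± 0.653 CPM in wild type (SD, n = 4 each). Ccl12 was 5.02-fold higher, a log2 fold change of 2.33 (SE 0.46, edgeR adjusted p = 0.0059). The calls of Ccl7 and Ccl12 were kept under all 19 alternative settings tried.

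Between Ccl7 and Ccl12 lies Ccl11, which encodes the CCR3 ligand eotaxin and is not one of the 8 genes. It moved the other way: 11.6, 7.60, 4.72 and 3.35 CPM in YAP5SA libraries 1 to 4, against 29.2, 15.3, 10.6 and 15.5 CPM in wild type libraries 1 to 4. The ranges overlapped, and the fall of 1.36 on the log2 scale (SE 0.40, edgeR adjusted p = 0.037) lost its call in 10 of 19 alternatives: without filter, on FPKM in 3 fits, and without YAP5SA libraries 2, 3 or 4 or wild type libraries 1, 2 or 4 in turn (adjusted p 0.057 to 0.11 over these). Ccl8 and Ccl1, farther along at 79.61 and 141.09 kilobases from Ccl2, had 1 fragment each in YAP5SA and 0 in wild type over all libraries. The longest exact run of bases shared between transcripts was 23 for Ccl2 and Ccl7, 17 for Ccl12 and Ccl2 and 21 for Ccl11 and Ccl12. Whether the aligner split reads between such genes was not tested.

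**Figure D2:**
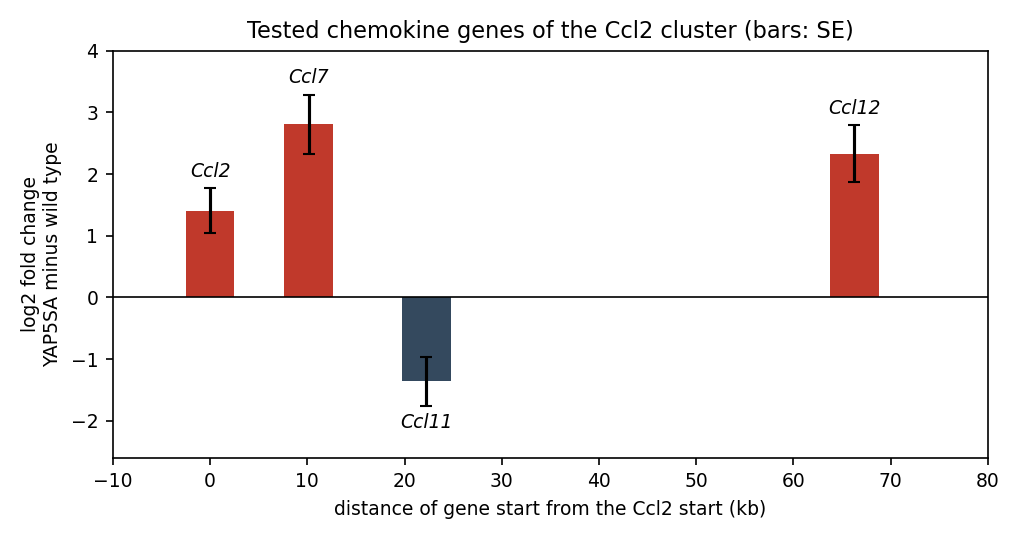
Log2 fold change of YAP5SA minus wild type (y axis, error bars of 1 SE) for the tested chemokine genes of the chromosome 11 cluster, by distance of each gene's start from that of Ccl2 in kilobases. Bars of Ccl2, Ccl7 and Ccl12 stand above 0, and that of Ccl11 between them at −1.36.

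Cxcl12, on chromosome 6 at 117168535 to 117181368 (plus strand), encodes SDF-1, a chemokine of embryonic mesenchyme that guides blood, nerve and vessel precursors. It was the most abundant of the 8 genes, at 330.2, 364, 347 and 380.5 CPM in YAP5SA libraries 1 to 4, against 313, 302, 307 and 307 CPM in wild type libraries 1 to 4. All YAP5SA libraries were above all wild type libraries, by little. The log2 fold change was 0.21 (SE 0.05, edgeR adjusted p = 0.020), 1.16-fold. The 3 fits on deposited FPKM gave adjusted p of 0.071 to 0.078 by limma, and FPKM ranges overlapped. Loci as densely covered as Cxcl12, at 0.288 fragments per exonic base, had counts that grew less than in proportion to depth, with a median slope of 0.55 on the log scale. For loci covered like Csf1 the slope was 0.81. Sparsely covered loci had slopes above 1: 1.09 for loci like Ccl12 and Cxcl14, 1.77 for those like Ccl2, Ccl7 and Cx3cl1, and 1.92 for those like Il34. Every YAP5SA library was deeper than every wild type library, and the part of these slopes in the changes of the 8 genes was not tested.

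The chemokine Cxcl14, on chromosome 13 at 56288643 to 56296551 (minus strand), was at 15.2, 14.1, 12.1 and 12.9 CPM in YAP5SA libraries 1 to 4, against 28.9, 18.1, 16.8 and 10.9 CPM in wild type libraries 1 to 4. The spread was in the wild type libraries, whose range held all 4 YAP5SA values. It differed by −0.46 on the log2 scale (SE 0.25, 95% interval −1.01 to 0.10, edgeR adjusted p = 0.25). It came to −0.16 without wild type library 1 and −0.64 without wild type library 4 (adjusted p = 0.059), with no call in either fit.

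Cx3cl1, fractalkine, on chromosome 8 at 94772180 to 94782426 (plus strand), was at 16.8, 11.9, 13.8 and 12.9 CPM in YAP5SA libraries 1 to 4, against 15.4, 11.6, 11.2 and 8.84 CPM in wild type libraries 1 to 4. The ranges overlapped and the first library was highest in both genotypes, with YAP5SA higher in all 4 same-numbered pairs. Its change was 0.23 on the log2 scale (SE 0.19, 95% interval −0.19 to 0.66, edgeR adjusted p = 0.46).

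**Figure D3:**
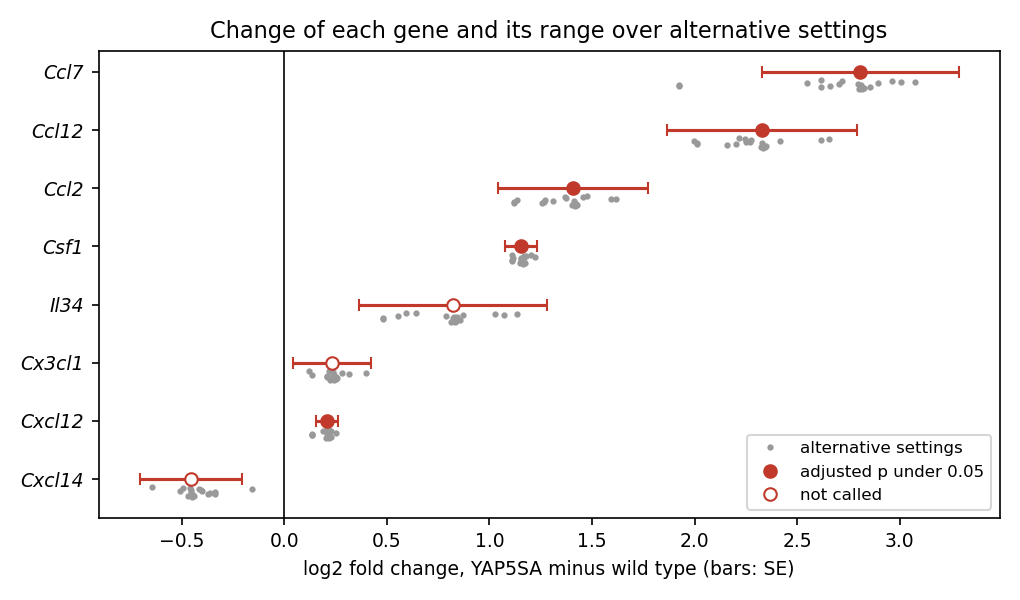
Log2 fold change of YAP5SA minus wild type (x axis) for each of the 8 genes, with the edgeR estimate as a large point, bars of 1 SE, and grey points for the 19 alternative settings. Filled points passed an adjusted p under 0.05: Ccl7 (2.81), Ccl12 (2.33), Ccl2 (1.41), Csf1 (1.16) and Cxcl12 (0.21), while the open points of Il34, Cx3cl1 and Cxcl14 did not.

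Per length, in FPKM, Cxcl12 led in both genotypes. In YAP5SA, mean levels ran Cxcl12 (123), Csf1 (32.7), Ccl12 (25.5), Ccl2 (10.9), Cxcl14 (8.25), Ccl7 (6.87), Cx3cl1 (4.63) and Il34 (1.85), and in wild type Cxcl12 (112), Csf1 (14.6), Cxcl14 (11.3), Ccl12 (4.97), Ccl2 (4.07), Cx3cl1 (3.92), Il34 (1.04) and Ccl7 (0.947). In both genotypes, neighbours with ranges that did not overlap were Cxcl12 over Csf1 and Cx3cl1 over Il34. Ccl7 had the lowest mean level of the 8 genes in wild type but not in YAP5SA.

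Loci whose 8-library pattern was most like each riser were found by the root mean square difference of log2 levels, each centred on its mean, among 12928 loci of at least 5 CPM on average. For Csf1 these were Fam198b (0.0947), Anxa3 (0.0948) and Slc35e4 (0.106). Nearest to Ccl7 were Adm (0.258), Ccl12 (0.275) and Msr1 (0.277), and to Ccl12 Nup62cl (0.404), Vgll3 (0.413) and Adm (0.417). Ccl2 and Ccl7 lay below 5 CPM on average and so could not be listed for any riser. Ccl12 and Ccl7 differed by 0.275, less than Ccl12 and any locus listed for it. Ccl2 was most like 2610019F03Rik (0.265), Cd14 (0.281) and Gpr65 (0.283). For Cxcl12, S1pr2 (0.0281), Heatr2 (0.0335) and 5830415F09Rik (0.0352) came first.

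Of the 10 receptors of these ligands, 9 were tested: 3 rose, 3 fell and 3 did not pass. Csf1r, the receptor of CSF1 and IL34, rose to 123 ± 11.7 CPM in YAP5SA, against 80.4 ± 13.8 CPM in wild type (log2 fold change 0.61, SE 0.11, edgeR adjusted p = 0.0041). The CX3CL1 receptor Cx3cr1 was at 101 ± 13.2 CPM in YAP5SA and 52.7 ± 5.92 CPM in wild type (0.94, SE 0.10, adjusted p = 0.00026). Ccr1 was at 17.4 ± 3.03 CPM in YAP5SA and 8.55 ± 1.58 CPM in wild type (1.03, SE 0.19, adjusted p = 0.0038). These 3 are receptors of macrophages and other myeloid cells.

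Ccr2, the receptor shared by CCL2, CCL7 and CCL12, did not pass the test: it was at 3.83, 3.73, 3.78 and 4.70 CPM in YAP5SA libraries 1 to 4, against 8.74, 8.09, 6.45 and 1.11 CPM in wild type libraries 1 to 4. Its log2 fold change was −0.60 (SE 0.46, edgeR adjusted p = 0.42), and without wild type library 4 it was −0.95 and called (0.0195). The CXCL12 receptor Cxcr4 fell to 39.0 ± 3.06 CPM in YAP5SA, against 57.2 ± 4.34 CPM in wild type, by 0.55 on the log2 scale (SE 0.08, adjusted p = 0.0012). Ackr3, named Cxcr7 in the files, was at 69.5 ± 2.97 CPM in YAP5SA and 61.9 ± 4.97 CPM in wild type (0.17, SE 0.07, adjusted p = 0.11), with a call without wild type library 4 (0.037). Ptprz1, a further IL34 receptor, fell by 0.95 (SE 0.18, adjusted p = 0.0048). Sdc1, a binding partner of IL34, fell by 0.16 with a call (0.048) that 18 of 19 alternatives lost, the replicate block among them (0.086). Ccr3 was too low to test.

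**Figure D4:**
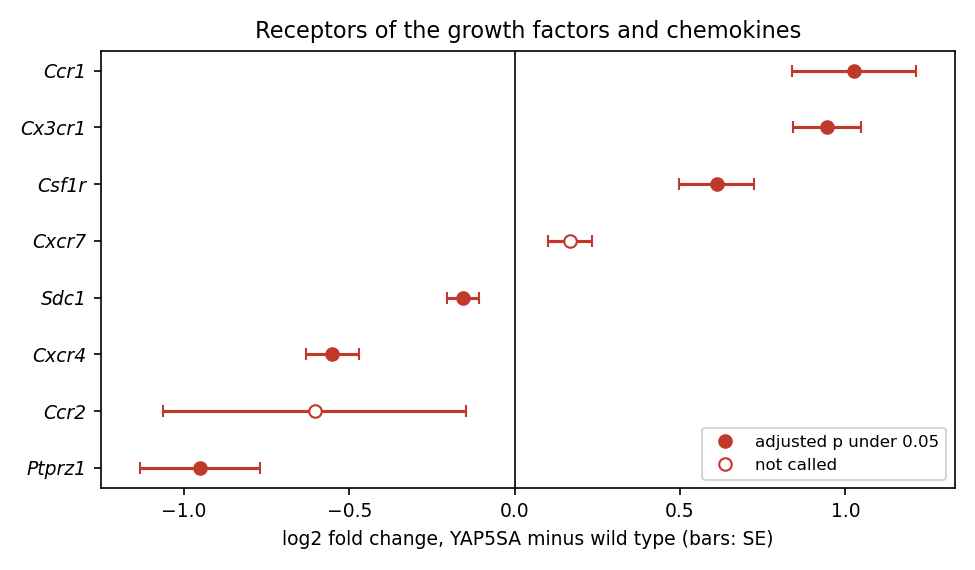
Log2 fold change of YAP5SA minus wild type (x axis, bars of 1 SE) for 8 of the 9 receptors tested, filled where the adjusted p was under 0.05. Ccr1, Cx3cr1 and Csf1r lie to the right, Ptprz1, Cxcr4 and Sdc1 to the left, and Ccr2 has the widest bar.

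Among the scavenging receptors, Ccrl1 (Ackr4), which takes up CCL19 and related chemokines, was the only one of 3 in the table that could be tested. It was at 2.64 ± 0.68 CPM in YAP5SA and 1.22 ± 0.241 CPM in wild type (log2 fold change 1.10, SE 0.30, edgeR adjusted p = 0.029), a call lost with DESeq2 (0.057) and without YAP5SA libraries 1 or 2 or wild type libraries 1, 2 or 4 in turn (up to 0.075). Of 31 other chemokines listed, 11 could be tested, with 2 higher, 2 lower and a median log2 fold change of −0.01. Cxcl13 (0.46, SE 0.11, adjusted p = 0.019) and Pf4 (0.52, SE 0.16, adjusted p = 0.040) were higher, and Cxcl15 (−1.92, SE 0.32, adjusted p = 0.0025) and Ccl11 were lower. Cxcl13, which attracts B cells, lost its call without YAP5SA library 3 (0.053). Pf4, made by megakaryocytes and macrophages, lost its call on leaving out any library but YAP5SA library 2 (0.054 to 0.081).

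Among other myeloid growth factors, 5 of 8 were tested and Tgfb1 alone passed, at 45.4 ± 2.34 CPM in YAP5SA and 32.5 ± 5.22 CPM in wild type (log2 fold change 0.49, SE 0.11, edgeR adjusted p = 0.010). Kitl gave −0.14 (adjusted p = 0.28), Mif −0.09 (0.60) and Flt3l 0.14 (0.82). Of 7 proteases that process chemokines, Dpp4, which trims CXCL12, was 1 of 6 tested to pass (0.75, SE 0.19, adjusted p = 0.018). It lost that call without wild type library 2 (0.053) or wild type library 4 (0.053). Adam10 (−0.09, adjusted p = 0.14) and Adam17 (0.10, adjusted p = 0.14), which shed CX3CL1, did not pass.

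Of 17 inflammatory and NF-kB response genes, 11 were tested, with 2 higher, 1 lower and a median log2 fold change of 0.02. Ptgs2, which encodes the prostaglandin synthase COX-2, was at 21.2, 12.2, 5.26 and 6.57 CPM in YAP5SA libraries 1 to 4, against 0.794, 0.735, 0.900 and 0.632 CPM in wild type libraries 1 to 4 (3.86, SE 0.51, edgeR adjusted p = 0.00071). Libraries 1 and 2 were the higher YAP5SA libraries, as for Ccl2, Ccl7 and Ccl12. The same held for Ankrd1, Icam1 and Dpp4, so this order was not particular to Ptgs2 and the CCR2 ligands. Icam1 (0.89, SE 0.25, adjusted p = 0.033) lost its call with limma-voom, in 3 FPKM fits and without each library but YAP5SA library 4 and wild type library 1 (0.051 to 0.085), and Vcam1 fell by 0.55 (SE 0.05, adjusted p = 8.6e-05). Both encode adhesion molecules for leukocytes.

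Most macrophage markers, among them Csf1r and Cx3cr1, were higher in YAP5SA, as were the 5 risers. Of 24 listed, 19 were tested: 13 rose, 6 were not called and none fell, beside 9.06% of all loci that rose. DESeq2 called 15 higher and limma-voom 12. The count lower was 0 also at an unadjusted p under 0.05 and by DESeq2 or limma-voom. The markers' median log2 fold change was 0.71 and their lowest −0.16. Their summed level was 909 to 1345 CPM in YAP5SA and 522 to 709 CPM in wild type, where library 4 was the lowest and the others lay at 689 to 709 CPM. The summed level was highest in YAP5SA library 1 and lowest in YAP5SA library 4, the same ends as for Csf1, while Ccl2, Ccl7 and Ccl12 were highest in YAP5SA library 2. These ends were not particular to macrophage markers. Summed smooth muscle markers (1123 and 901 CPM in YAP5SA libraries 1 and 4) and Ankrd1 (69.2 and 21.9 CPM) shared them. Summed enteric neuron markers did not, being lowest in YAP5SA library 2 (285 CPM). Cxcl12 ran the other way within YAP5SA, lowest in library 1 (330.2 CPM) and highest in library 4 (380.5 CPM). Mrc1, a macrophage scavenger receptor, gave 0.98 (SE 0.12, edgeR adjusted p = 0.00042), Ctss, a lysosomal protease, 1.07 (SE 0.19, adjusted p = 0.0033) and C1qb, a complement gene of macrophages, 0.65 (SE 0.12, adjusted p = 0.0035). Monocyte and neutrophil markers gave 0 higher and 2 lower of 7 tested, Plac8 (−0.52, adjusted p = 0.0012) and Prtn3 (−0.86, adjusted p = 0.029, lost in 6 of 19 alternatives), and 0 higher also at an unadjusted p under 0.05 and by DESeq2 or limma-voom, with summed levels of 40.6 to 61.0 CPM in YAP5SA and 53.1 to 106 CPM in wild type. The 53.1 CPM belonged to wild type library 4, and the other wild type libraries were at 91.0 to 106 CPM.

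Most marker lists of other cells held genes that fell. Their counts are to be read beside all loci tested, of which 9.85% fell and 9.06% rose. Smooth muscle markers fell for 7 of 10 (median −0.62; 901 to 1123 CPM summed in YAP5SA, 1675 to 1805 CPM in wild type), enteric neuron markers for 9 of 10 (median −1.07; 285 to 352 CPM in YAP5SA, 553 to 651 CPM in wild type), and glia and neural crest markers for 6 of 7 (170 to 221 CPM in YAP5SA, 321 to 356 CPM in wild type). Gastric epithelium markers fell for 9 of 9 (535 to 707 CPM in YAP5SA, 937 to 1090.1 CPM in wild type). Fibroblast markers fell for 3 of 10, Col3a1, Lum and Foxf1a (2467 to 2781 CPM in YAP5SA, 2990 to 3077 CPM in wild type). Lum overlapped between genotypes and lost its call without YAP5SA libraries 2, 3 or 4 or wild type libraries 1 or 2 in turn (0.064 to 0.080), while Pdgfra, with −0.30 (adjusted p = 0.12), was called with the replicate block (0.016) and without wild type library 1 (0.041). Endothelial markers gave 1 higher of 11, Kdr (log2 fold change 0.62), near the share of all loci that rose. Summed endothelial levels were 899 to 1031 CPM in YAP5SA and 794 to 947 CPM in wild type. Eng, with 0.28 (adjusted p = 0.056), was called in 6 of 19 alternatives, among them the replicate block (0.048), DESeq2 (0.030) and the fits without YAP5SA library 1 (0.040) or wild type library 1 (0.018). Mesothelial and erythroid markers each gave 2 lower of 6, Krt19 and Upk3b (the second lost in 8 of 19 alternatives) for the mesothelium and, among the red cell genes, Hbb-y. Krt19 is also counted among the gastric epithelium markers. The part of these shifts in cell markers in the levels of the 8 genes was not tested.

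**Figure D5:**
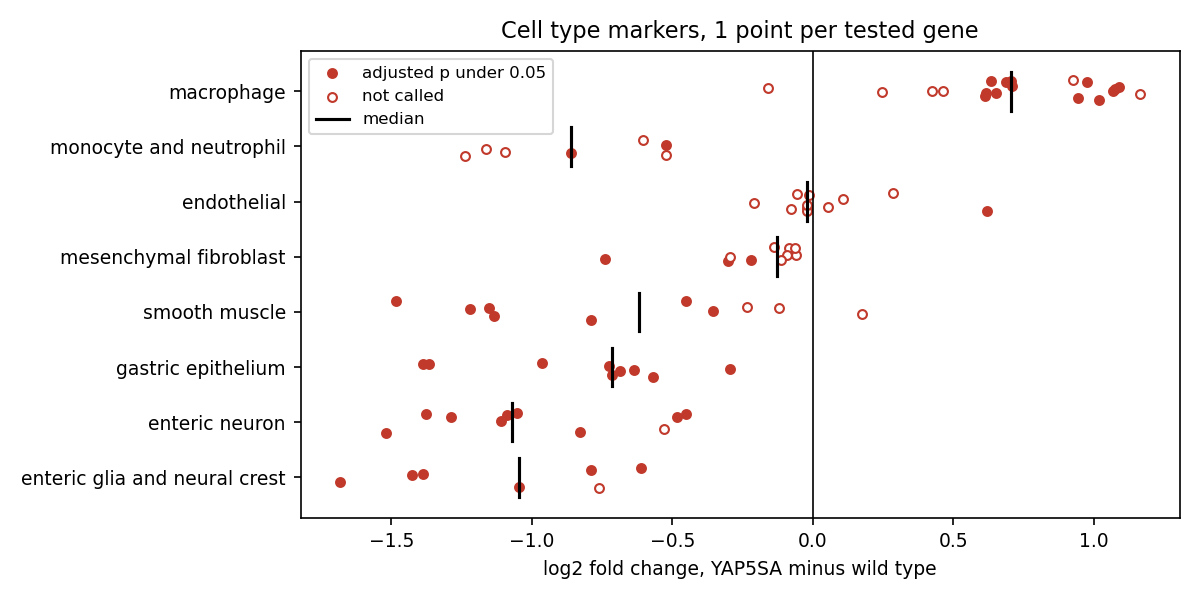
Log2 fold change of YAP5SA minus wild type (x axis) of each tested marker gene, 1 point a gene in 8 cell type lists, filled where the adjusted p was under 0.05, with a black bar at each list's median. The macrophage median lies at 0.71, to the right of every other list's, and the neuron and glia medians lie farthest left, at −1.07 and −1.04.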

How the data were processed

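Per the labels' protocols, RNA of frozen E13.5 stomachs was extracted with Trizol and made into Illumina TruSeq RNA libraries, 4 of YAP5SA and 4 of wild type. The submitters' processing notes name Cuffdiff, Cufflinks 2.2.1, TopHat2 2.0.9 and build mm10, with no role for each. Handling of strand and duplicates was not given in the sources used here. The deposited table holds estimated counts, as raw fragments per library, and FPKM scaled by the authors, for 26747 loci; 10.6% to 11.0% of count values per library were not whole (tolerance 1e-06), so counts were rounded. Loci without a gene name (3582, 1.85% to 1.97% of fragments) were left out. The table numbers libraries from 0 and the labels from 1; numbers were matched in that order, which affects no genotype.

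Genes were tested with edgeR 4.0.16 (R 4.3.3, robust quasi-likelihood fit), TMM factors and filterByExpr (minimum 10 fragments, total 15), with genotype as the only term. Adjusted p are two-sided Benjamini-Hochberg values over 14574 loci, called below 0.05; a positive log2 fold change means higher in YAP5SA, levels are CPM, and errors are SD of 4 libraries. Alternatives used DESeq2 1.42.0, limma 3.58.1 and the deposited FPKM. The step was also run on simulated counts, drawn independently for each library and in proportion to depth. Their spread followed the trend over all loci and not each gene's own spread. They held neither paired libraries nor the slopes on depth given above. The run does not cover these, and as its outcome is not given it lends no support here. Same-numbered libraries of the genotypes deviated together (correlations 0.220, 0.143, 0.141 and 0.206), and libraries of unlike number gave −0.253 to 0.104. A pairing by number thus rests on the data alone and not on the labels. The main fit left the number out, and a block on it was an alternative. No 2 libraries of a genotype agreed within counting error. As embryos or pools behind each library are not stated, p measures only the spread between these libraries, which may be technical. The 8 genes and the gene lists were chosen with earlier results of these data known. All 8 genes, their receptors and up to 4 genes of each other list with the smallest p are named, plus the 3 loci most like each riser, except 2 genes counted in their lists that are not reported here.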

Additional observations from a re-analysis of the deposited data

Results flagged for a closer look

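The highest or lowest of 4 libraries stood far from the other 3 in 10 of 146 groups of 4, over 73 genes, by Dixon's ratio above its 95% critical value. Chance gives about 1 in 20 groups. Among the 8 genes this held for Ccl12, at 2.65 CPM in wild type library 2 against 1.26 to 1.43 CPM in the other wild type libraries. Among receptors, Sdc1 was at 158 CPM in wild type library 1 (144 to 146 CPM in the others) and Ccr2 at 4.70 CPM in YAP5SA library 4 (3.73 to 3.83 CPM in the others). Wild type library 4 was low for the chemokines Cxcl13, at 20.5 CPM (28.3 to 29.9), and Pf4, at 10.6 CPM (15.1 to 15.7). Among marker genes, the values standing apart were Actg2 at 140.3 CPM in wild type library 1 (121 to 124), Kdr at 190.0 CPM in YAP5SA library 4 (217 to 222), Cldn7 at 38.2 CPM in YAP5SA library 1 (28.6 to 30.0), Hbb-y at 84.3 CPM in wild type library 4 (78.2 to 79.0) and Slc4a1 at 40.2 CPM in YAP5SA library 4 (17.3 to 20.6).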

How the results depend on the processing

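Over 19 alternatives, members called higher numbered 4 to 5 and members called lower 0, and leaving out 1 library gave the same ranges, 4 to 5 and 0. Loci called over the whole table numbered 1004 to 1446 higher and 974 to 1590 lower, and 1004 to 1284 and 974 to 1521 on leaving out 1 library. Csf1 (log2 fold change 1.11 to 1.22), Ccl7 (1.92 to 3.07) and Ccl12 (2.00 to 2.66) kept their calls throughout. Ccl2 lost its call in 5 alternatives (adjusted p up to 0.066) and Cxcl12 in the 3 FPKM fits. With the replicate number as a block, 1445 loci were higher and 1590 lower, and no member's call changed (Il34 adjusted p = 0.11, Cx3cl1 0.31). Of the other named genes, Sdc1 lost its call there and Pdgfra and Eng gained one. Outside the 8 genes, 1235 values were recomputed: 1129 kept direction and call, 87 lost a call, 18 gained one and 1 changed sign, Flt3l, which was not called in any fit, at −0.044 without YAP5SA replicate 1 and 0.35 without wild type replicate 1, its range on leaving out 1 library. Il34, Ccl7, Ccl2 and Ccl12 rest on few fragments, which limits their precision.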
